A study of Mus musculus with 246 samples.

Results

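The ventral hippocampus (vHipp) was compared with 5 other brain regions of the same animals, using bulk RNA sequencing of tissue punches. The series holds 41 animals with a library from each of 6 regions, and the vHipp is represented here by 7 of its 41 vHipp libraries, 1 from each of 7 animals. The other 35 libraries of these animals come from the medial prefrontal cortex (mPFC), the anterior cingulate cortex (ACC), the nucleus accumbens (Nacc), the basolateral amygdala (BLA) and the dorsomedial thalamus (DMT), 7 libraries each. They were chosen by their labels as the Ctrl_Vehicle animals of the NoInteraction set. These were adult male F1 mice of CD1 parents, from control litters raised with standard bedding and nesting material. Their dams had received the gel without SAFit2, an inhibitor of the co-chaperone FKBP51, early after birth, and their label names no social interaction session before tissue collection. The series has 6 conditions, with early life adversity (ELA), SAFit2 and social interaction in the others. All were CD1 males, and from weaning they shared cages with mice of the other conditions. Punches were taken from both hemispheres and pooled, so each library is a mixture of all cell types under the punch. In such bulk samples, fewer cells of a type and less RNA per cell cannot be told apart.

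The hippocampus is built from a few fields with their own principal cells. Granule cells of the dentate gyrus receive cortical input and send mossy fibers to CA3, CA3 pyramidal cells project to CA1, and CA1 and the subiculum form the output. The ventral pole projects to the amygdala, accumbens and prefrontal cortex and is known for its part in anxiety, social behavior and the feedback control of the corticosteroid stress response. The hippocampus is also known for its high density of mineralocorticoid receptors, which bind corticosterone at low hormone levels.

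Promoter sequence is shown for 3 of the genes that set the vHipp most apart from the other regions, since it carries a motif of a transcription factor family of hippocampal neurons. The motif CAGATG, with CATCTG on the other strand, is an E-box of the type bound by NeuroD factors. It was searched in the 250 bases before each RefSeq transcription start of the mouse build GRCm38.p6. Of the 15 genes that ranked highest in the vHipp, 13 had an entry, and 3 held the motif. Capitals mark the motif.
Krt2, chr15:101818170-101818419, minus strand: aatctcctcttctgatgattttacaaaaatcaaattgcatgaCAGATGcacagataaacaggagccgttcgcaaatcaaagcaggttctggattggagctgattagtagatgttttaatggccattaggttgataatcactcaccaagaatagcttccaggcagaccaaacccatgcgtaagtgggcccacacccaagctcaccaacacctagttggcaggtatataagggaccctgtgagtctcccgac
Il20rb, chr9:100486474-100486723, minus strand: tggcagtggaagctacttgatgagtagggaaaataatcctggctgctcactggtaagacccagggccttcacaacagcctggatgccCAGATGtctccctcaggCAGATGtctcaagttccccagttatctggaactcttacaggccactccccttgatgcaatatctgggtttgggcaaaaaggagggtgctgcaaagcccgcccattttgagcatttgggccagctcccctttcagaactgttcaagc
Fermt1, chr2:132946037-132946286, minus strand: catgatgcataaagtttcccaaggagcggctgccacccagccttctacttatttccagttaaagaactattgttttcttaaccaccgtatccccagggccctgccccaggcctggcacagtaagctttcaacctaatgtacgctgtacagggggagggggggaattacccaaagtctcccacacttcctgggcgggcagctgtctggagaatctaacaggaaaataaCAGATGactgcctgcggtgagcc
In Krt2 the motif began 208 bases before the start, in Fermt1 23 bases before it, and Il20rb held it at 146 and at 163 bases before the start. The share of 250-base windows with the motif was 15.9% for the genes higher in the vHipp than in each other region, 16.2% for those lower than in each, 10.7% for all tested genes and 14.4% for all windows of the table. The match of letters is a description of these windows only.

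Total estimated counts of the 42 libraries lay between 21645573 and 39360386, and those of the vHipp libraries between 23719043 and 33099402. Whether a library came from the animal on its label was examined in each region with 60 genes whose level differs between animals. They were chosen for going together between same-numbered libraries of the vHipp, mPFC, ACC, BLA and DMT. A match in these regions therefore follows in part from the choice. All vHipp, mPFC, ACC, BLA and DMT libraries matched the animal on their label, with the lowest correlation at 0.778. In the Nacc, 2 of 7 libraries, labelled animals 1 and 81, matched another animal, and the lowest correlation with the labelled animal there was 0.046. Both were kept under their labels, and counts without them are given below. The 7 vHipp punches also differed in what they held. The summed level of the thalamus list, 10 markers, was lowest in animal 97, at 65.62 CPM (counts scaled to a common library size, TMM-normalized, and not to gene length), and highest in animals 1 and 41, at 265.65 and 377.01 CPM, against 3158 to 3846 CPM in the DMT. The summed level of 10 choroid plexus markers was 22.74 to 37.85 CPM in 5 animals, 161.31 CPM in animal 65 and 307.12 CPM in animal 9. Counts without animals 1 and 41 and without animals 9 and 65 are given for the main results.

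**Figure D1:**
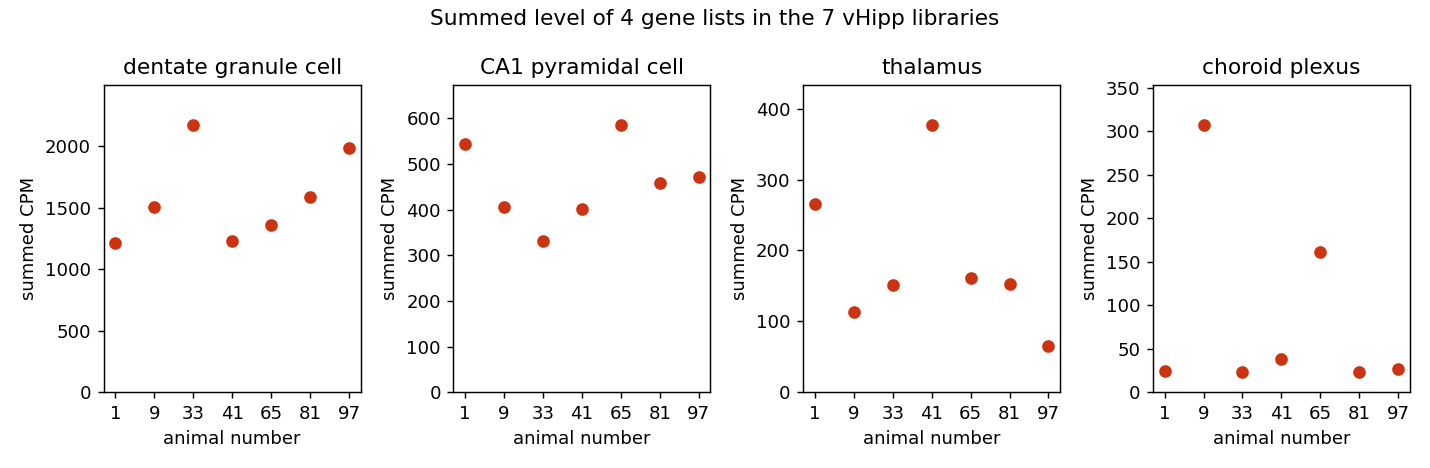
Summed level of 4 marker lists in the 7 vHipp libraries, in CPM on a linear axis from 0, 1 point a library, over the animal number. Dentate granule cell markers lie between 1214 and 2170 CPM and CA1 markers between 332 and 586 CPM, while thalamic markers stand out in animals 1 and 41 and choroid plexus markers in animals 9 and 65.

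Differences were tested over 16066 protein-coding genes with edgeR's quasi-likelihood test, with region as the factor and the animal as a block, and p-values were adjusted by Benjamini-Hochberg over all genes. A gene was called when its adjusted p was under 0.05 and its difference exceeded 1 on the log2 scale, a 2-fold difference. Against the mean of the 5 other regions 10128 genes (63%) had an adjusted p under 0.05, 30.9% of genes higher and 32.2% lower in the vHipp, and 1495 genes (9.31%) were called. Of these, 769 (4.79%) were higher in the vHipp and 726 (4.52%) lower. The median difference of all tested genes was -0.01 on the log2 scale. Without the 2 Nacc libraries of doubtful identity 760 were higher and 726 lower, without animals 9 and 65 771 and 716, and without animals 1 and 41 758 and 681. Without the DMT libraries 684 were higher and 728 lower, of which 587 and 584 were called with them too.

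A difference from a mean can come from a single region, so the vHipp was also set against each region. At an adjusted p under 0.05 in either direction, 57.8% of genes differed from the mPFC, 60.9% from the ACC, 60.9% from the Nacc, 56.7% from the BLA and 73.3% from the DMT, and the calls below add the 2-fold threshold. The vHipp differed from the DMT in the most genes, with 1594 called higher (9.92%) and 1621 lower (10.1%). Against the Nacc 1084 were higher (6.75%) and 972 lower (6.05%). Against the ACC 922 were higher (5.74%) and 792 lower (4.93%), and against the mPFC 840 (5.23%) and 819 (5.1%). Against the BLA, 596 genes were called higher (3.71%) and 1182 lower (7.36%). Genes called higher against each of the 5 regions are named vHipp-high here, and numbered 219 (1.36% of tested genes). Genes called lower against each are named vHipp-low, and made up 0.666% of tested genes. In 163 of the vHipp-high and 66 of the vHipp-low genes, the 7 vHipp libraries did not overlap with any of the 35 others. Over all genes this held for 565 genes above the others (3.52%) and 320 below (1.99%). The vHipp was the highest of the 6 regions in all 7 animals for 5.83% of tested genes and the lowest for 3.85%. For 91 of the 219 vHipp-high genes (41.6%) the region with the smallest difference from the vHipp was the BLA, for 40 the mPFC, for 36 the ACC, for 35 the DMT and for 17 the Nacc. Among the vHipp-low genes the BLA was nearest for 27, the ACC for 23, the DMT for 22, the Nacc for 20 and the mPFC for 15.

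The genes highest in the vHipp relative to each other region included a keratin, a digestive enzyme and a cytokine receptor subunit. Krt2 (ENSMUSG00000064201.9, chromosome 15, 101810689 to 101818169 in GRCm38), a type II keratin of epithelial cells, had a lowest, median and highest level of 11.3, 13.2 and 20.5 CPM in the vHipp and at most 1.66 CPM in any other library. The groups did not overlap, and the log2 difference from the mean of the other regions was 6.88 (SE 0.19, adjusted p = 3.96e-25, edgeR). It ran from 4.83 to 9.22 over the 5 regions, so the difference from the mean rests in part on levels near 0. Lct (ENSMUSG00000026354.9, chromosome 1, 128284756 to 128328318), which encodes the intestinal enzyme lactase and is also a marker of dentate granule cells, lay at 27.2, 40.8 and 69.2 CPM. The 35 other libraries reached 2.34 CPM, and the log2 difference was 6.33 (SE 0.17, adjusted p = 5.16e-25, edgeR). Over the 5 regions the differences of Lct ran from 4.72 to 8.22. Animals 33 and 97, with the highest summed level of dentate markers, had the highest Lct, and animal 41 the lowest. Lct is itself part of that sum.

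Tdo2, which encodes the enzyme that opens the ring of tryptophan in the kynurenine pathway, had 6.41, 10.4 and 16.6 CPM in the vHipp and at most 1.14 CPM elsewhere, a log2 difference of 5.09 (SE 0.14). All 7 vHipp libraries were above all others. Il20rb, a receptor subunit for cytokines of the interleukin-20 family, had 3.28, 4.85 and 6.39 CPM against at most 0.417 CPM (4.60, SE 0.21), and its difference was similar against each region, between 4.46 and 4.94. Csf2rb2, a beta subunit of the interleukin-3 receptor, had 4.09, 8.73 and 9.80 CPM against at most 1.25 CPM (3.56, SE 0.12). Reads of Csf2rb2 can be shared with its near-identical neighbour Csf2rb, so its value is uncertain. Clec1a, a C-type lectin, had 7.30, 9.19 and 15.1 CPM against at most 1.81 CPM, and a difference of 3.83 (SE 0.14).

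Ghsr, the receptor of the appetite hormone ghrelin, was low in all samples but separated the regions, with 2.56, 3.98 and 4.87 CPM in the vHipp and at most 0.558 CPM elsewhere (5.03, SE 0.21). Onecut1, a homeobox transcription factor, had 6.34, 9.48 and 20 CPM against at most 1.56 CPM (4.23, SE 0.17). Vwa3b, which holds a von Willebrand factor A domain, had 15.8, 20.1 and 29.6 CPM against at most 3.11 CPM (4.21, SE 0.15). None of these genes overlapped between the groups. Syna, an envelope protein of retroviral origin named syncytin-A, had 8.56, 11.6 and 13.6 CPM in the vHipp, and its highest other library, of the BLA, reached 4.84 CPM (6.68, SE 0.38). Rtl3, a gene derived from a retrotransposon, had 3.56, 4.50 and 9.30 CPM, up to 1.13 CPM in the BLA and 0 in all 7 DMT libraries. Fermt1, an adaptor of integrins in epithelial cells, had 1.04, 2.53 and 3.18 CPM and was also at 0 in all 7 DMT libraries. Against the BLA the differences were 4.42 for Rtl3 and 3.94 for Fermt1, and no difference from a mean is given for them, since it would rest on a comparison with 0. The remaining named genes were Cldn22, a claudin of tight junctions, at a difference of 5.51 (SE 0.27), and Gm14569, a predicted gene, at 3.84 (SE 0.24). Cldn22 had 2.67 CPM on average in the vHipp, and its differences ran from 3.49 to 8.18 over the 5 regions. Its difference from the mean thus rests in part on levels near 0. The same holds for Ghsr, with differences from 3.49 to 7.53, and for Syna, with differences from 3.495 to 8.10. Exons of Cldn22, Syna, Onecut1 and Csf2rb2 overlap with another annotated gene, on the opposite strand for Cldn22 and Syna and on the same strand for Onecut1 and Csf2rb2.

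**Figure D2:**
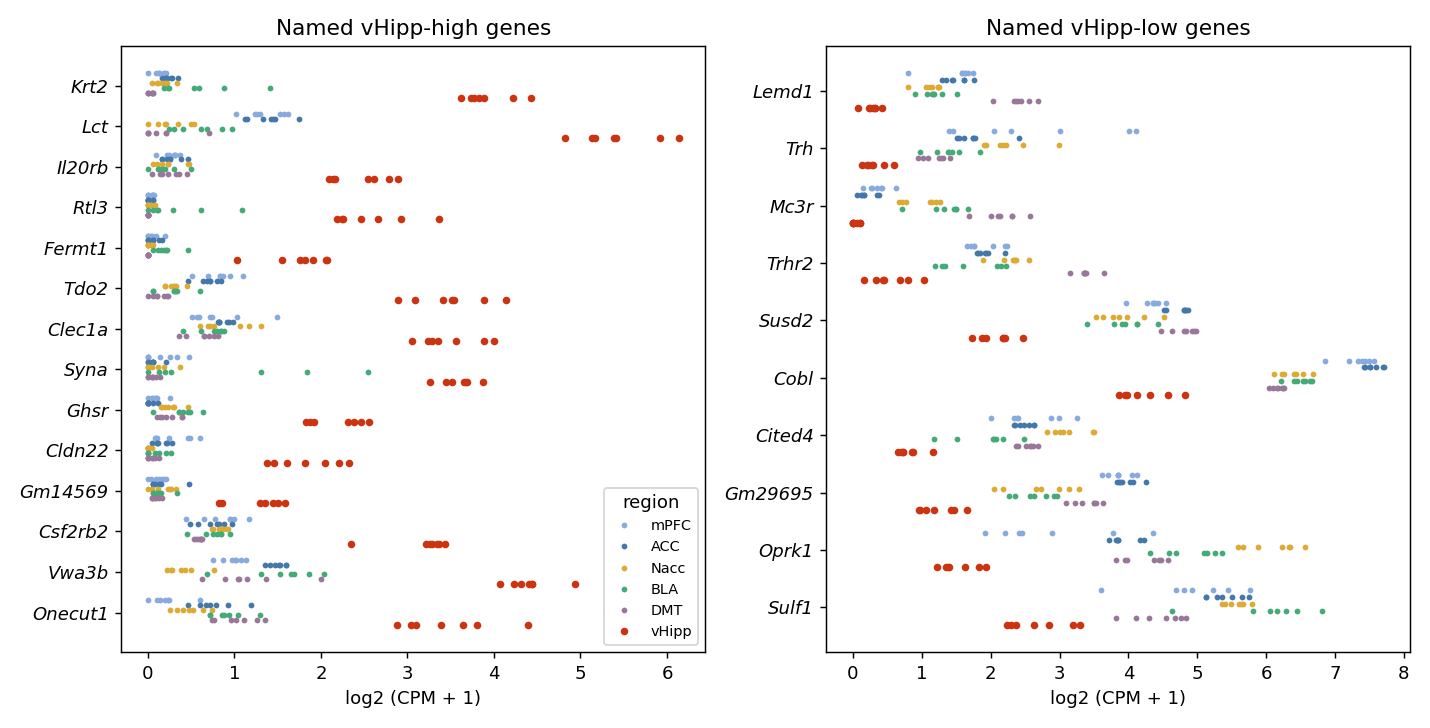
Level in each library of 14 named vHipp-high genes (left) and the 10 named vHipp-low genes (right), as log2 (CPM + 1), 1 point a library, coloured by region. In the left panel the 7 vHipp points of each gene lie to the right of all others, for example Lct at 27.2 to 69.2 CPM against at most 2.34 CPM, and in the right panel they lie to the left except for Oprk1 and Mc3r, where they overlap with the lowest other libraries.

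Dentate granule cell markers were the hippocampal group with the most calls. Of 15 markers tested, 12 were called higher, 0 lower and 8 were vHipp-high, with a median of 1.85 on the log2 scale. The summed level was 1214 to 2170 CPM in the vHipp and 570 to 870 CPM in the other libraries, without overlap, and the count of 12 was the same without the 2 Nacc libraries, without animals 9 and 65, without animals 1 and 41 and without each region in turn. Prox1, the homeobox factor that sets granule cell identity, had 186, 229 and 353 CPM in the vHipp. It was also high in the DMT, at 218 ± 22.2 CPM (SD, n = 7), and 13 to 17.9 CPM on average in the 4 other regions. The difference was 3.26 (SE 0.07) against the mean, but 0.16 against the DMT. Dsp, which encodes the desmosome protein desmoplakin, had 64.8, 89.5 and 140 CPM, 41.2 ± 8.97 CPM in the DMT and 0.793 to 5.70 CPM on average in the others (5.03, SE 0.16). C1ql2, a secreted protein of mossy fiber synapses, had 37.6, 52.8 and 75.3 CPM against 17.7 ± 12.8 CPM in the DMT (3.95, SE 0.21). No vHipp library of Dsp or C1ql2 fell into the range of the others.

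Markers of the other hippocampal fields were called less uniformly. Of 8 CA1 markers, 4 were called higher and 1 lower, with a median of 1.27. Their summed level had a median of 459 CPM in the vHipp and 126 CPM in the DMT. It was higher in the mPFC (531 CPM), ACC (533 CPM), BLA (736 CPM) and Nacc (794 CPM). Fibcd1, an acetyl-group receptor of the cell surface, was vHipp-high, with 41.2, 68.0 and 96.3 CPM, and 1 other library, of the BLA of animal 9, reached into that range at 93.2 CPM (2.46, SE 0.21). Spink8 (3.02) was higher on average but not against the BLA (-0.54). Wfs1, a membrane protein of the endoplasmic reticulum that marks CA1, was called lower. Its levels of 54.3 CPM at the lowest and 74.5 CPM at the median compared with 493 ± 99.1 CPM in the Nacc and 423 ± 79.3 CPM in the BLA, and the difference of -1.15 was not called without the Nacc libraries (-0.79) or without the BLA libraries (-0.83).

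Of 7 CA2 markers 1 was called higher and 2 lower (median -0.08). The neurotrophin gene Ntf3, at 5.66, 8.40 and 13.2 CPM against at most 2.11 CPM, was the higher one (3.90, SE 0.19), and Pcp4 (-1.13) and Cacng5 (-1.15) were lower, both only while the DMT was in the mean (-0.82 and -0.72 without it). Of 7 CA3 markers 2 were higher and 1 lower (median 0.62). Grik4, a kainate receptor subunit, had 60.3, 76.8 and 94.8 CPM in the vHipp and at most 62.9 CPM elsewhere (1.46, SE 0.11), Iyd had 3.69 ± 1.11 CPM in the vHipp and 4.14 ± 0.983 CPM in the DMT, and Coch was vHipp-low (-2.27, SE 0.15). Of 5 hilar mossy cell markers 2 were higher (median 0.86), of 3 subiculum markers 0 were called (median -0.02), and of 5 markers of the ventral pole Dcn and Nr2f2 were higher and Htr2c lower (median 0.46). The median summed hilar mossy level was 95.08 CPM in the vHipp, 390.5 CPM in the DMT and at most 49.52 CPM elsewhere. For the ventral pole markers it was 93.64 CPM in the vHipp, above the mPFC (65.93 CPM) and ACC (54.46 CPM). The DMT (225.76 CPM), Nacc (240.55 CPM) and BLA (351.58 CPM) held more. All 4 Cajal-Retzius cell markers were called higher, with a median of 1.89, and 2 of them, Lhx1 and Lhx5, did not reach 1 CPM in 7 libraries. Their summed level overlapped between regions, with a median of 168.19 CPM in the vHipp and 168.36 CPM in the mPFC. Lhx1 among them was vHipp-high at only 0.488 to 1.83 CPM, and Reln stood at the threshold (1.03, and 0.52 without the DMT). Of 10 markers of adult neurogenesis, 3 were called higher (median 0.83), among them Neurod1 and Hopx, and Dcx, the marker of immature neurons, had a difference of -0.72. Of 12 interneuron markers Htr3a, Vip and Cnr1 were called higher and Chrna2 lower (median 0.25). The GABA-synthesizing enzyme genes Gad1 and Gad2 had differences of 0.59 and 0.03. Without the DMT libraries 1 of the 12 markers was called higher and 3 lower. Their median summed level was 1110.82 CPM in the vHipp and 100.52 CPM in the DMT. It was higher in the ACC (1169.24 CPM), mPFC (1301.66 CPM), BLA (1739.44 CPM) and Nacc (2391.96 CPM).

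**Figure D3:**
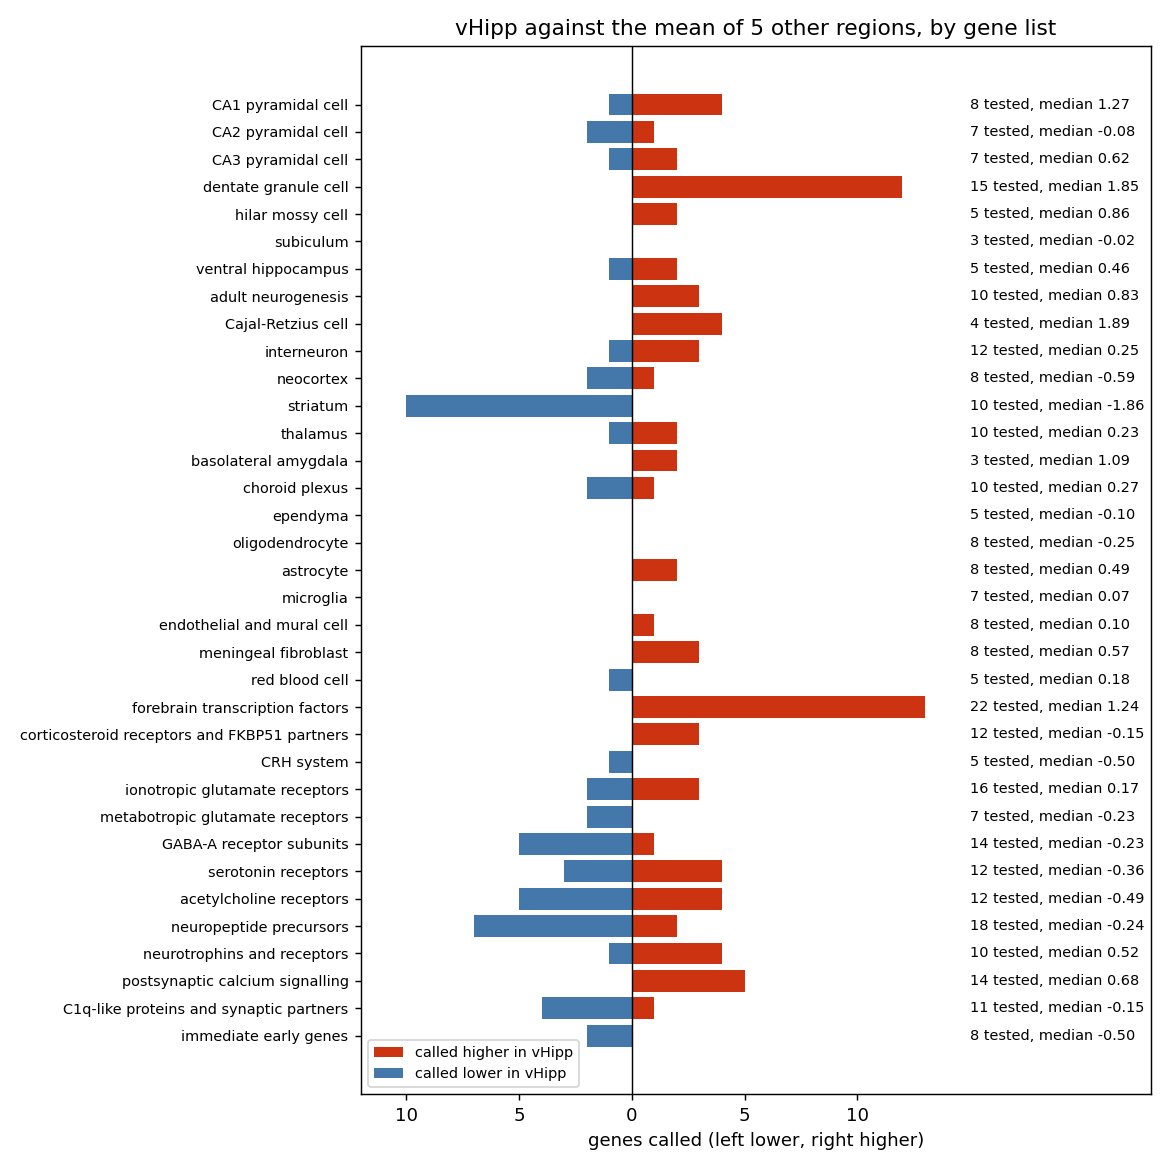
Number of members of 35 gene lists called higher (right, red) or lower (left, blue) in the vHipp against the mean of the 5 other regions, with the number tested and the median log2 difference printed beside each bar. Dentate granule cell markers (12 of 15 higher) and forebrain transcription factors (13 of 22 higher) hold the most calls to the right, and striatal markers (10 of 10 lower) to the left.

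Transcription factors of the forebrain were mostly higher in the vHipp, with 13 of 22 called higher, 0 lower and a median of 1.24. Without the DMT 10 were called higher and 2 lower, and Emx1 and Bcl11b were among those no longer called. Emx2, a homeobox factor needed for hippocampal growth, was vHipp-high, with 14.7, 21.1 and 23.9 CPM against at most 8.70 CPM (2.84, SE 0.09). Neurod1, a basic helix-loop-helix factor of granule neurons, was also vHipp-high, with 31.4, 37.2 and 47.6 CPM against at most 23.9 CPM (2.44, SE 0.19). Neither overlapped with the other regions. Zbtb20, a zinc finger factor that specifies hippocampal neurons, had 402, 549 and 685 CPM against at most 372 CPM, and missed the vHipp-high call because its difference from the Nacc was 0.90 (2.21 against the mean, SE 0.13). Zeb2 had 350, 376 and 432 CPM against at most 233 CPM (1.67, SE 0.11). Lhx9 (3.99, SE 0.25) was higher than in 4 regions, but the DMT held 111.1 ± 7.3 CPM against 25.8 ± 2.12 CPM in the vHipp.

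Within the corticosteroid system both receptors differed in pattern. Nr3c2 (ENSMUSG00000031618.14, chromosome 8, 76899442 to 77245012 in GRCm38), which encodes the mineralocorticoid receptor, was vHipp-high. Its lowest, median and highest levels were 192, 224 and 237 CPM in the vHipp and at most 112 CPM in the other libraries, so the groups did not overlap. The difference was 2.22 (SE 0.08, adjusted p = 2.74e-22, edgeR), from 1.51 against the BLA to 2.93 against the DMT. The order of the regions below the vHipp was BLA (76.2 ± 19.5 CPM, SD, n = 7), Nacc (71.5 ± 7.65 CPM), mPFC (39.9 ± 7.56 CPM), ACC (36.0 ± 5.22 CPM) and DMT (28.5 ± 0.394 CPM). BLA and Nacc, and mPFC and ACC, lay within their spread of each other.

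Nr3c1, which encodes the glucocorticoid receptor, was not called. Its 75.3, 95.2 and 97.8 CPM in the vHipp overlapped with the 81.7 to 210 CPM of the others, and the difference of -0.32 (SE 0.04, adjusted p = 2.36e-09, edgeR) was below the 2-fold threshold and largest against the DMT (-1.04). Hsd11b1, the enzyme that regenerates corticosterone from its inactive form, had 17.1, 20.1 and 24.4 CPM against at most 14.2 CPM (1.99, SE 0.09), with the smallest difference from the DMT (0.89). Fkbp5, which encodes FKBP51, a co-chaperone that lowers the hormone sensitivity of the glucocorticoid receptor, had 48.8, 57.1 and 77.6 CPM. It was highest in the vHipp in all 7 animals, although the range of the other libraries reached 51.1 CPM. Its difference of 1.04 (SE 0.05) stood at the threshold and was not called without the DMT (0.93), the ACC (0.94), the mPFC (0.98) or animal 9, where it lay just under 1. Against the Nacc, which held 46.0 ± 4.56 CPM, it was 0.37. In all, 3 of 12 corticosteroid receptors and FKBP51 partners were called higher and 0 lower (median -0.15). Of 5 genes of the corticotropin-releasing hormone system tested, the hormone gene Crh was called lower (-1.34, SE 0.26), with 0.558, 1.04 and 1.31 CPM, though not without the BLA (-0.92), and its receptor Crhr1 was not called (-0.50).

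**Figure D4:**
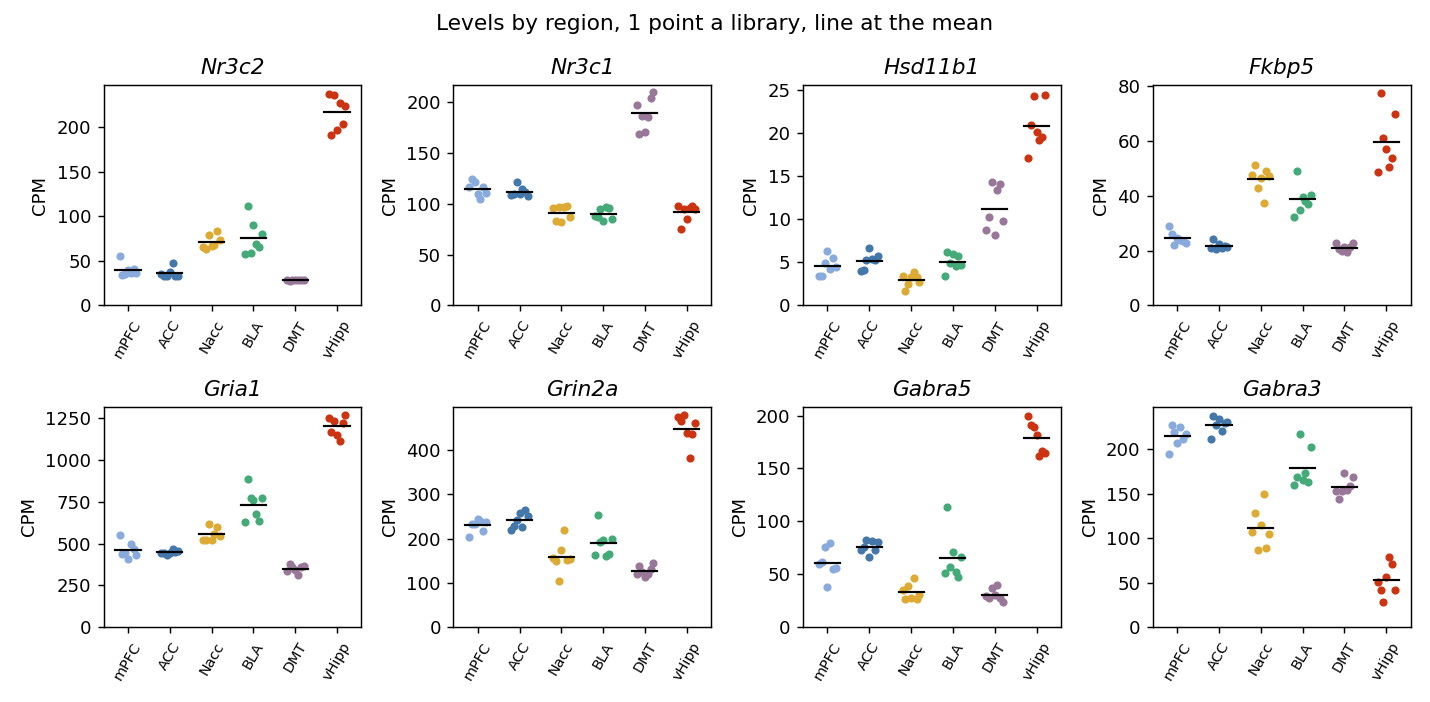
Levels of Nr3c2, Nr3c1, Hsd11b1, Fkbp5, Gria1, Grin2a, Gabra5 and Gabra3 in CPM by region, on linear axes from 0, 1 point for each of the 7 libraries of a region and a line at the mean. Nr3c2 lies at 192 to 237 CPM in the vHipp and at most at 112 CPM elsewhere, Nr3c1 overlaps with the other regions, and Gabra5 and Gabra3 stand apart in opposite directions.

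Glutamate receptor subunits differed by gene. Of 16 ionotropic subunits 3 were called higher and 2 lower (median 0.17). Gria1, an AMPA receptor subunit of CA1 synapses, had 1110, 1219 and 1270 CPM in the vHipp against at most 885 CPM (1.28, SE 0.04), and Grin2a, an NMDA receptor subunit, had 381, 461 and 479 CPM against at most 265 CPM (1.28, SE 0.07). Both groups were apart. Grik3, a kainate subunit, was lower, with 58.9, 75.0 and 110 CPM against up to 320 CPM, with overlap at the lower end (-1.34, SE 0.09). Of 7 metabotropic receptors, Grm4 (-1.87, SE 0.12) and Grm8 (-1.5, SE 0.15) were lower and 0 higher. Of 14 genes of postsynaptic calcium signalling 5 were called higher, with a median of 0.68, and their summed level was 13098 to 15701 CPM against 4531 to 11288 CPM in the others. These 5, Camk2a, Ppp3ca, Nrgn, Prkca and Itpka, all lost their call without the DMT, where Camk2a, the alpha subunit of calcium/calmodulin-dependent kinase II, was at 937 ± 106 CPM. The difference of Camk2a was 1.27 with the DMT and 0.96 without it, and its vHipp libraries (4588 to 5783 CPM) were above all others (785.8 to 4040 CPM). Nrgn, a calmodulin-binding protein of dendritic spines, fell from 1.67 to 0.73 without the DMT, and its vHipp libraries overlapped with those of both cortical regions. Without the DMT 1 member was called higher, Adcy1, an adenylyl cyclase, at 1.05, and 1 lower, the kinase gene Camk4, at -1.06.

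GABA-A receptor subunits were lower more often than higher, with 5 of 14 called lower and 1 higher (median -0.23). The higher one was Gabra5, the alpha5 subunit of extrasynaptic receptors known for hippocampal tonic inhibition. It was vHipp-high, with 162, 182 and 200 CPM against at most 113 CPM (1.86, SE 0.10, adjusted p = 6.43e-18, edgeR). Gabra3, another alpha subunit, was vHipp-low with 28.6, 50.9 and 79.1 CPM against at least 87.1 CPM (-1.72, SE 0.11). Gabrq, the theta subunit, was also vHipp-low, with 0.205, 0.528 and 1 CPM against at least 1.39 CPM (-2.78, SE 0.25). None of these 3 overlapped between the groups. Gabre (-2.18), Gabrd (-1.09) and Gabrg3 (-1.05) were the other lower members, and Gabrd and Gabrg3 lost their call without the Nacc (-0.94 and -0.90).

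Receptors of modulatory transmitters were split as well. Of 12 serotonin receptors 4 were called higher and 3 lower (median -0.36). Htr1a, an inhibitory receptor, had 30.7, 33.5 and 45.6 CPM. The mPFC held 35.2 ± 2.9 CPM, and the difference of 1.91 fell to 0.87 without the DMT. Htr4, which raises cAMP, had 13.3, 14.5 and 19.0 CPM (1.95, SE 0.13) while the Nacc held 15.1 ± 3.72 CPM. Htr3a, the ion channel of the family, had 4.95, 6.35 and 7.25 CPM (2.07, SE 0.20). Htr2c (-1.76, SE 0.15), Htr1b (-1.57, SE 0.13) and Htr1d (-2.95, SE 0.33) were lower. Of 12 acetylcholine receptors 4 were higher and 5 lower (median -0.49). Chrna7, the alpha7 nicotinic subunit, had 24.6, 28.2 and 32.5 CPM against at most 23.9 CPM (1.27, SE 0.07), and the muscarinic receptor gene Chrm2 was vHipp-low, with 5.24, 7.89 and 11.5 CPM against at least 13 CPM (-1.53, SE 0.14). Chrm1 was above all other libraries, with 268, 294 and 306 CPM, yet its difference of 1.61 fell to 0.48 without the DMT, which held 4.17 ± 2.35 CPM.

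Most called neuropeptide genes were lower in the vHipp, with 7 of 18 lower and 2 higher (median -0.24). Penk, Tac1 and Cartpt, precursors of enkephalins, substance P and the CART peptide, had 16.7 to 27.5, 2.80 to 4.61 and 0.453 to 0.981 CPM, against Nacc means of 1050, 228 and 54.1 CPM. Their differences were -1.79 (SE 0.24), -2.48 (SE 0.32) and -2.68 (SE 0.23), and Penk was not called without the Nacc (-0.81). Trh is described with the vHipp-low genes. Vip (1.25) and Grp (1.51) were called higher, but the difference of Vip was -0.32 without the DMT and that of Grp 0.71 without the Nacc. Among 10 neurotrophin genes and receptors 4 were higher and 1 lower (median 0.52). Bdnf, the brain-derived neurotrophic factor, had 40.1, 47.6 and 56.0 CPM against at most 32.4 CPM, without overlap (1.72, SE 0.20). Of 11 C1q-like proteins and their synaptic partners, 1 was higher, C1ql2, and 4 were lower, among them Cbln1, Cbln2 and Cbln4 (median -0.15). Cbln1, an organiser of synapses, was 118 ± 30.7 CPM in the DMT, and its difference fell from -1.78 to -0.96 without that region.

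Several genes of non-neuronal cells were also higher. Of 8 astrocyte markers 2 were called higher and 0 lower (median 0.49), and their summed level was 5228 to 6337.1 CPM in the vHipp and 3442 to 4872 CPM in the other libraries, without overlap. Gfap, the intermediate filament protein of astrocytes, was vHipp-high, with 222, 253 and 319 CPM against at most 155 CPM (2.21, SE 0.23), and the water channel gene Aqp4 had 152, 185 and 216 CPM (1.07, SE 0.10), not called without the ACC (0.97). Aldh1l1 and S100b, 2 other astrocyte markers, had differences of 0.01 and -0.01. Of 8 meningeal fibroblast markers, the proteoglycan genes Lum (1.88), Dcn (1.85) and Ogn (2.42) were vHipp-high, while the collagen genes Col1a1 (0.48) and Col1a2 (-0.03) were not called. The summed meningeal level in the vHipp, 103.05 to 202 CPM, lay within that of the others, 30.3 to 486 CPM. Dcn, which is also on the list of the ventral pole, varied between 12.6 and 72.8 CPM among the vHipp libraries. Of 8 oligodendrocyte, 7 microglia and 5 ependymal markers 0 were called, and of 8 endothelial and mural cell markers Acta2 was called higher, at the threshold.

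Markers of neighbouring tissue were checked in the same way. All 10 striatal markers were called lower, with a median of -1.86 and a summed level of 193 to 210 CPM against up to 6405.8 CPM in the Nacc. Of them, 6 remained called without the Nacc, and 1 was vHipp-low. The DMT held 192.17 to 224.98 CPM and overlapped with the vHipp. Median summed levels were 268.68 CPM in the mPFC, 291.75 CPM in the ACC and 1481.72 CPM in the BLA. Of 8 neocortical markers 2 were lower and 1 higher (median -0.59). Cux2, a factor of upper cortical layers, had 29.2, 32.9 and 41.6 CPM against at least 51.0 CPM (-1.49, SE 0.12), and Foxp2 was vHipp-low as well (-3.09, SE 0.22). Of 10 thalamic markers Tnnt1 (1.85) and Gbx2 (1.23) were called higher and Ramp3 (-1.06) lower. Gbx2 was at -0.04 without the ACC. On the log2 (CPM + 1) scale, Gbx2 in the vHipp lay below the mean of the other regions in 6 of 7 animals. Without animals 1 and 41 only 1 thalamic marker was higher and 3 were lower. Without the DMT, against regions outside the thalamus, 5 were higher and 0 lower. Shox2, a thalamic homeobox gene, had 0.246 CPM in animal 97 and 14.6 CPM in animal 41, and at most 234 CPM in the DMT. Of 3 BLA markers 2 were called higher (median 1.09), and 0 without the DMT. Of 5 red blood cell markers 1 was lower (median 0.18). Of 10 choroid plexus markers Kl was higher and Clic6 and Aqp1 lower, and without animals 9 and 65 there were 1 and 5. The BLA libraries held 40.09 to 4814.89 CPM of these markers, and without them 6 were higher and 0 lower. Ttr, the transport protein secreted by the choroid plexus, was 0.047 to 0.453 CPM in 4 vHipp libraries, 6.86 CPM in animal 41, 123 CPM in animal 65 and 244 CPM in animal 9. The part of thalamic and choroid plexus RNA in the differences of other genes was not tested gene by gene. Counts of dentate markers, forebrain transcription factors and corticosteroid genes were the same without either pair of animals, while some other lists moved. Ionotropic glutamate receptor genes called lower went from 2 to 1 without either pair. Without animals 1 and 41, neurotrophin genes called lower went from 1 to 0 and corticotropin-releasing hormone genes called higher from 0 to 1. Without animals 9 and 65, subiculum markers called lower went from 0 to 1.

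The genes lowest in the vHipp relative to each other region included a peptide hormone, a receptor of that hormone and other peptide receptors. Cobl (chromosome 11, 12236608 to 12464960), an actin nucleator of dendrites, had 13.5, 16.4 and 27.2 CPM in the vHipp and at least 64.7 CPM in every other library (-2.60, SE 0.10, adjusted p = 2.36e-21, edgeR). Susd2, a membrane protein with a sushi domain, had 2.30, 3.53 and 4.53 CPM against at least 9.57 CPM (-2.59, SE 0.14). Both were without overlap. Trh, the precursor of thyrotropin-releasing hormone, had 0.0936, 0.209 and 0.519 CPM against at least 0.921 CPM (-3.42, SE 0.39). Trhr2, a receptor of that hormone, had 0.123, 0.372 and 1.04 CPM against at least 1.29 CPM (-2.87, SE 0.23). Both are low in all regions, and both separated the groups.

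Oprk1, the kappa opioid receptor, had 1.32, 1.64 and 2.82 CPM, and the other libraries lay between 2.79 CPM in the mPFC and 93.9 CPM (-3.40, SE 0.29). The groups touched at this lower end, although the vHipp was lowest in all 7 animals. Mc3r, a melanocortin receptor, was at 0 CPM at the median of the vHipp libraries and at most 0.0755 CPM, against 0.0379 to 4.92 CPM elsewhere. The groups overlapped at this low level, the vHipp was lowest in all 7 animals, and no fold is given. Sulf1, an extracellular sulfatase of heparan sulfate, had 3.70, 5.18 and 8.78 CPM against at least 11.2 CPM (-2.75, SE 0.25). Cited4, a co-activator binding protein, was -2.66 (SE 0.19), Lemd1, a protein with a LEM domain, was -3.12 (SE 0.22), and the predicted gene Gm29695 was -2.68 (SE 0.18). Exons of Lemd1 overlap with other annotated genes on both strands.

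The largest differences from a single region were mostly of genes close to 0 on one side, and their levels are given in place of folds. Against the Nacc and the BLA the lowest in the vHipp were Isl1 and Lhx8, homeobox factors of striatal and cholinergic neurons. Isl1 was at most 0.0349 CPM in the vHipp and 18.7 ± 3.52 CPM in the Nacc, and Lhx8 at most 0.041 CPM and 14.9 ± 8.81 CPM. The median of the vHipp libraries was 0 CPM for both. Against the DMT they were Dcstamp, at most 0.0372 CPM against 1.79 ± 0.317 CPM, and the predicted gene Gm5741, at most 0.0755 CPM against 6.32 ± 5.99 CPM. Neurod6, a factor of excitatory neurons of the cortex and hippocampus, was among the highest against the DMT, with 128, 193 and 227 CPM against 0.269 ± 0.146 CPM (9.35), and the ACC held 148 ± 9.7 CPM. Ms4a15 and S100a5, the lowest against the mPFC, had 4.99 ± 6.48 and 1.72 ± 2.9 CPM there, with an SD above the mean. Tbx22 and Atp12a had 1.24 ± 0.267 and 1.91 ± 0.341 CPM in the ACC, and at most 0.0346 and 0.0744 CPM in the vHipp. Gm49358, which shares exons with Nt5dc3 and Ttc41 on the same strand, had 0, 6.09 and 6.79 CPM in the vHipp and 0 in all ACC and BLA libraries. The highest against the mPFC were Ttr and Shox2, whose vHipp levels are given above by animal.

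Of 8 immediate early genes 0 were called higher and 2 lower (median -0.50). Fos, an activity-induced transcription factor, had 2.42, 3.24 and 10.3 CPM against 3.25 to 57 CPM, was lowest in the vHipp in all 7 animals, and differed by -1.38 (SE 0.16). Npas4 (-1.34, SE 0.13) was lowest in 4 of 7 animals. Arc and Junb had differences of 0.34 and 0.18. Without the DMT 4 were lower, with Egr1 (-1.08) and Egr2 (-1.59) added. Jun, which encodes a partner of Fos and is not on this list, was vHipp-high at 138 CPM on average (1.73), highest in all 7 animals, and was singled out after its value was seen.

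The same contrast was measured in the 34 animals of the 5 other conditions, which had no part in the calls made in the 7 animals. The gene lists were chosen with earlier results of these data known. There, 788 genes were called higher (4.9%) and 809 lower (5.04%). Of the 769 genes called higher in the 7 animals, 768 had the same sign in the 34 animals and 701 were called. Of the 726 called lower, 726 had the same sign and 639 were called. All 219 vHipp-high genes had the same sign and 218 were called, and all vHipp-low genes had the same sign and all but 2 were called. The median difference of the vHipp-high genes was 2.22 in the 7 animals and 2.32 in the 34, and that of the vHipp-low genes -1.99 and -1.97. In the 34 animals, Nr3c2 differed by 2.25, Gabra5 by 1.95, and Lct by 6.24. Of all 41 Nacc libraries 12 matched another animal.

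**Figure D5:**
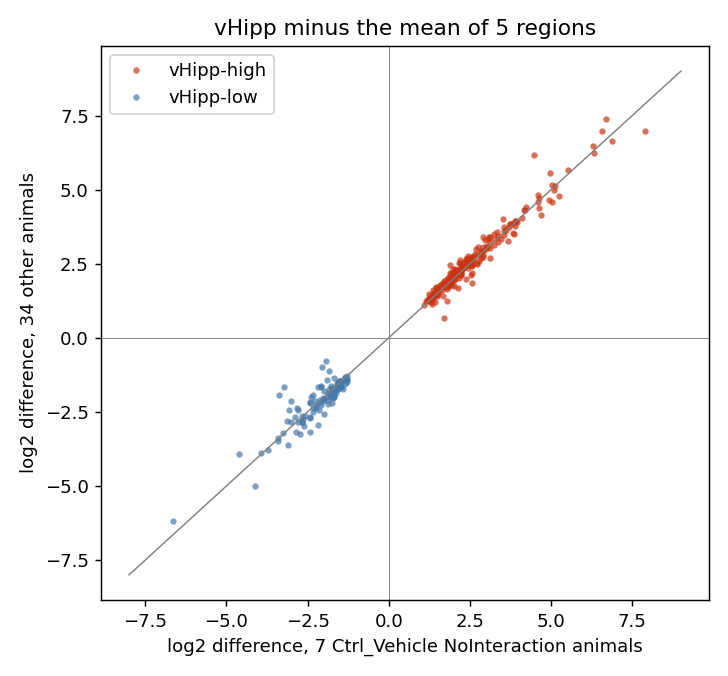
Log2 difference of the vHipp from the mean of the 5 other regions in the 34 other animals (vertical axis) over that in the 7 Ctrl_Vehicle NoInteraction animals (horizontal axis), 1 point a gene, for the 219 vHipp-high (red) and the vHipp-low (blue) genes, with the line of equal values in grey. All points lie on the same side of 0 in both sets.

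Whether the difference depended on the condition was tested over all libraries of the 41 animals, with a quasi-likelihood F test of the contrast across the 6 conditions. Of 16066 genes, 6 had an adjusted p under 0.05 (0.0373%, edgeR) and 691 an unadjusted p under 0.05 (4.3%). Wnt9b, a secreted ligand of the Wnt pathway, had the smallest adjusted p of 0.00958, with differences from 1.4651 to 2.9997 across the conditions. Its vHipp level was 2.27 ± 0.842 CPM in the 7 animals, and the DMT held 23.4 ± 4.51 CPM. Rgs16, a member of the thalamus list, was another of the 6 genes and is given below. For Nr3c2, Fkbp5, Gria1 and Gabra5, described above, the differences varied little between the conditions. Nr3c2 lay between 2.16 and 2.31, Fkbp5 between 0.96 and 1.05, Gria1 between 1.27 and 1.38 and Gabra5 between 1.86 and 1.99, and their adjusted p was 1 (edgeR).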

How the data were processed

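RNA from bilateral punches was poly-A selected, and stranded paired-end libraries were sequenced. The authors deposited estimated counts for each gene, merged from salmon as the table's name gives, without scaling for depth or gene length. The submitters' processing notes also name STAR, DESeq2 and the builds GRCm39 and mm39, without versions or roles. Of all values 12.12% were not whole, and they were rounded.

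Of 56691 gene identifiers 52073 were matched without version to GENCODE M21 (GRCm38), which gave gene types, positions and exon overlaps. A further 978 took their type from the RefSeq symbol, and 3640 had none. No coordinate was converted between builds. Tests kept the protein-coding genes whose counts over the 42 libraries added up to 100 or more and were above 0 in 6 or more. Normalization was TMM, and CPM are scaled by the TMM-adjusted library size, not by gene length. Tests used edgeR 4.0.16 in R 4.3.3, with DESeq2 1.42.0 and limma 3.58.1 as alternatives. The dispersion trend of the fit over all animals came from 1500 seeded genes. The study compared conditions within a region, so the model with region and animal was chosen here. Labels number the animals. The 60 genes were chosen for going together between same-numbered libraries outside the Nacc. Over them, the deviations of the vHipp and these libraries had r from 0.708 to 0.920 in 28 of 28 pairs. Over all genes r lay between -0.11 and 0.357, with a median of 0.163.

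On simulated counts of 16066 genes with 200 changed, edgeR found 200 with 0 false calls. For the test across conditions it found 97 of 100 changed genes among 2000, with 8 false calls. These counts hold for that simulation only. The 200 changes all exceeded the 2-fold threshold and lay in genes above a minimum expected count. The other genes had no difference between regions or animals, so high recovery was largely built in. Recovery of changes near the threshold or in genes with few counts was not tested. Recovery with as many changed genes as the 1495 called in the data was not tested. P-values of the main fit measure the spread between libraries that is left after region and animal are fitted. Genes under 1 CPM rest on few counts per library.

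The members and the gene lists were chosen with earlier results of these data known. Named were the 15 vHipp-high and 10 vHipp-low genes with the largest smallest difference over the 5 regions, on that side in all 7 animals and at 1 CPM or more in the higher group, the 2 genes with the largest difference each way from each region, the 5 smallest p-values across conditions, and the list members. Untested for low counts were Lefty1, Avpr1b, Ucn, Htr2b and C1ql4. Results for some genes are not reported here. A planned exact sign-flip test over the 7 animals is not reported, since the named genes were chosen for lying on 1 side in all of them.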

Additional observations from a re-analysis of the deposited data

Results flagged for a closer look

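In the 7 vHipp libraries, 65 marker lists and named genes were examined for a sample far from the others, by the gap to the nearest sample over the whole range. In 4 of them it passed Dixon's 95% critical value, and chance passes it in about 1 in 20 groups. The summed level of red blood cell markers was 355.6 CPM in animal 97, with the next at 220.7 CPM. Csf2rb2 was lowest in animal 65 at 4.092 CPM, with the next at 8.287 CPM. Vwa3b was highest in animal 33 at 29.59 CPM, with the next at 20.77 CPM. Cited4 was highest in animal 65 at 1.228 CPM, with the next at 0.831 CPM.

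The vHipp difference varied across the 6 conditions at an adjusted p under 0.05 (edgeR's quasi-likelihood F test) in 6 of 16066 genes, and in 4 without the Nacc libraries. Wnt9b (adjusted p = 0.00958) had differences of 2.43, 2.12 and 2.9997 in Ctrl_Vehicle, ELA_Vehicle and ELA_SAFit2 animals without interaction and of 1.81, 1.47 and 1.47 with it. Recql4, a DNA helicase (0.0185), had 0.75, 0.64 and 0.43 without and 1.1539, 1.018 and 1.0029 with interaction. Osbpl10, a lipid-binding protein (0.0384), had -1.12, -1.40 and -1.42 without and -1.55, -1.49 and -1.68 with interaction. Ssbp2 (0.0384) lay between -0.13 and 0.12. Rgs16, a regulator of G protein signalling (0.0385), lay between -0.52 in ELA_Vehicle and 0.52 in ELA_SAFit2 animals, both without interaction. Plekhg1 (0.0385) was the other gene, and was named after its value was seen. Exons of Recql4, Ssbp2 and Rgs16 overlap with a gene on the opposite strand.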

How the results depend on the processing

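Counts of called genes against the mean of the 5 regions stayed within 1.5 times of the reported ones under each planned analysis choice at the same fold threshold. They were 772 higher and 737 lower with DESeq2, 736 and 712 with limma on 1 difference per animal, 771 and 725 with DESeq2 size factors, 597 and 542 at 1 CPM or more, and 981 and 760 without the low-count filter, of which 56.3% were higher against 51.4%. Without the replicate block they were 754 and 723, of which 751 and 714 were called with it. With all gene types the counts reached 2422 higher than the DMT, 1245 lower than the mPFC and 1197 lower than the ACC. Without the DMT 208 genes were lower than each of the 4 remaining regions.

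With a log2 threshold of 0.5 the higher and lower counts were 1687 and 1630 against the mean, 1824 and 1701 against the mPFC, 2001 and 1719 against the ACC, 2086 and 1928 against the Nacc, 1400 and 2056 against the BLA, 2892 and 3029 against the DMT and 518 and 293 against all 5. With a threshold of 2 they were 216 and 179, 271 and 252, 305 and 227, 404 and 385, 142 and 508, 696 and 607, and 44 and 11 in the same order, and 25 and 14 for the list members. Leaving out each animal in turn gave 717 to 782 higher and 681 to 734 lower against the mean, 743 to 844 and 773 to 845 against the mPFC, 842 to 925 and 754 to 801 against the ACC, 1014 to 1150 and 940 to 993 against the Nacc, 564 to 633 and 1092 to 1157 against the BLA, 1526 to 1602 and 1542 to 1612 against the DMT, 193 to 221 and 96 to 114 against all 5, and 72 to 78 and 46 to 53 for list members.

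Of 152 called genes among the 339 named or listed, 100 were called under all 22 alternatives at this threshold. The other 52 lost the call at least once, 28 of them without the DMT and 16 without the Nacc. Among the genes lost when a single animal was left out were Acta2, Aqp1, Cnr1, Fkbp5, Gabrg3, Gbx2, Grin3b, Ntf5, Ramp3 and Reln, and leaving out the Nacc libraries of animals 1 and 81 also ended the call of Acta2. The sign turned for Kcne2 (-2.14) and Slc4a5 (-2.63) without animals 9 and 65, Gbx2 (-0.04) without the ACC, and Rspo2 (-0.0015), Slc32a1 (-1.02) and Vip (-0.32) without the DMT. The cause was not tested.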
